A study of Caenorhabditis elegans with 4 samples.

Results

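The 41 genes described here encode collagens of the cuticle of Caenorhabditis elegans, and they are a list of named genes from the 17096 in the read count table. The list was chosen with earlier results of these data known, and 127 other genes named col are not in it. The 41 genes comprise 15 genes named for the body shape or blister phenotype of their mutants (dpy, sqt, rol, lon and bli genes) and 26 genes that carry only a col number. Where a gene had several transcripts, the best-read one over all libraries stands for it. Whole N2 worms, the wild type of this species, were fed either Escherichia coli OP50, the usual laboratory food, or Bacillus subtilis PY79, and their RNA was taken at Day 4 or at Day 13 of adult life. There was 1 library for each of the 4 combinations, from a synchronized population of N2 with no transgene or mutation, and the study used these libraries to ask how age-related expression differs in worms on a diet that lengthens life. The study states for its aging transcriptomes in general, and not for these 4 libraries in particular, that the plates held FUDR.

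The cuticle is an extracellular matrix that the hypodermis, the skin of the worm, secretes at its outer surface. It is built mainly from many small collagens, is made anew at each larval molt and at the molt to the adult, and is not replaced after that. Some collagens are deposited in narrow circumferential furrows, some form struts of the adult cuticle, and loss of single members makes worms short and fat (dumpy), long, helically twisted (roller) or blistered. Furrow and other shape collagens are known mainly from larvae, where their transcripts rise and decline with each molting cycle, whereas col-19 is the standard marker of the adult cuticle.

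All 41 genes were found, and 25 of them reached 10 reads in 1 or more libraries. The other 16 had at most 9 reads in any library, and col-17, col-94 and col-144 had 0 reads in each of the 4. Only 13 genes had at least 10 reads in every library. Library totals over such transcripts were 28650595 and 28552961 reads on OP50 and 4838114 and 4469802 reads on PY79, Day 4 before Day 13, so that a low collagen was read much more shallowly on PY79. A floor of 3 reads corresponded to 0.114, 0.141, 0.556 and 0.513 CPM (reads per 1e6 of the scaled library), with OP50 Day 4, OP50 Day 13, PY79 Day 4 and PY79 Day 13 in that order throughout. The genes lie on all 6 chromosomes, with 11 on V, 9 each on II and X, 5 each on III and IV, and 2 (dpy-5 and dpy-14) on I. Annotated genes on the other strand overlap 14 of them, and genes on the same strand overlap dpy-10, col-159 and col-160, so reads of these 17 could belong in part to a neighbour.

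There are no replicates, so each comparison describes these libraries and not the conditions. Intervals given in parentheses are exact 95% intervals for the split of the reads between 2 libraries after scaling, and they cover counting error only. A collagen was counted higher or lower if the scaled difference reached 2-fold with an interval that left out 1. Only genes past the quasi-likelihood test of edgeR are said to have risen or fallen, with diet and day as additive terms and 1 residual degree of freedom, at a Benjamini-Hochberg adjusted p under 0.05 over the 9032 genes tested. Scaling was by TMM, which sets library sizes so that the trimmed mean of the gene ratios is level. With total reads in place of TMM, every log2 ratio would shift by -0.31 and 0.23 for the age comparisons on OP50 and PY79, and by 0.28 and 0.82 for the diet comparisons at Day 4 and Day 13. Because the RNA came from whole worms, fewer cells of a type and less RNA per cell cannot be told apart.

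The 41 collagens together took 461491 reads in OP50 Day 4, 132739 in OP50 Day 13, 125960 in PY79 Day 4 and 47521 in PY79 Day 13. These reads were 1.61%, 0.465%, 2.60% and 1.06% of the library. Most of them came from very few genes, since the 5 highest collagens held 87.1%, 87.0%, 87.2% and 93.9% of the collagen reads. Numbered collagens filled each of these top places, and the shape collagens together held 0.607%, 2.05%, 0.107% and 1.47%.

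Among the numbered collagens, col-106 (Y77E11A.15, chromosome IV) had the highest mean level, with 79911, 25622, 37470 and 16219 reads, or 3395, 1356, 7789 and 3112 CPM per kilobase of transcript. Next was col-184 (F15A2.1, chromosome X), with 83089, 22224, 34864 and 14083 reads, or 3460, 1153, 7104 and 2649 CPM per kilobase. In col-122 (T05A1.2, chromosome IV) there were 108609, 20274, 11961 and 5275 reads, and the levels were 4296, 999, 2315 and 942 CPM per kilobase. In col-181 (W03G11.1, chromosome X) there were 110463, 26963, 15454 and 6650 reads, and the levels were 3746, 1139, 2565 and 1019 CPM per kilobase. These 4 genes stood above every other member in each library, except that col-119 with 1103 CPM per kilobase exceeded col-122 in OP50 Day 13. The reads come from the 3′ ends of transcripts and need not grow with length, but the transcripts are of like size, with a median of 1003 nucleotides and only bli-1 (3010) above 1593.

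**Figure D1:**
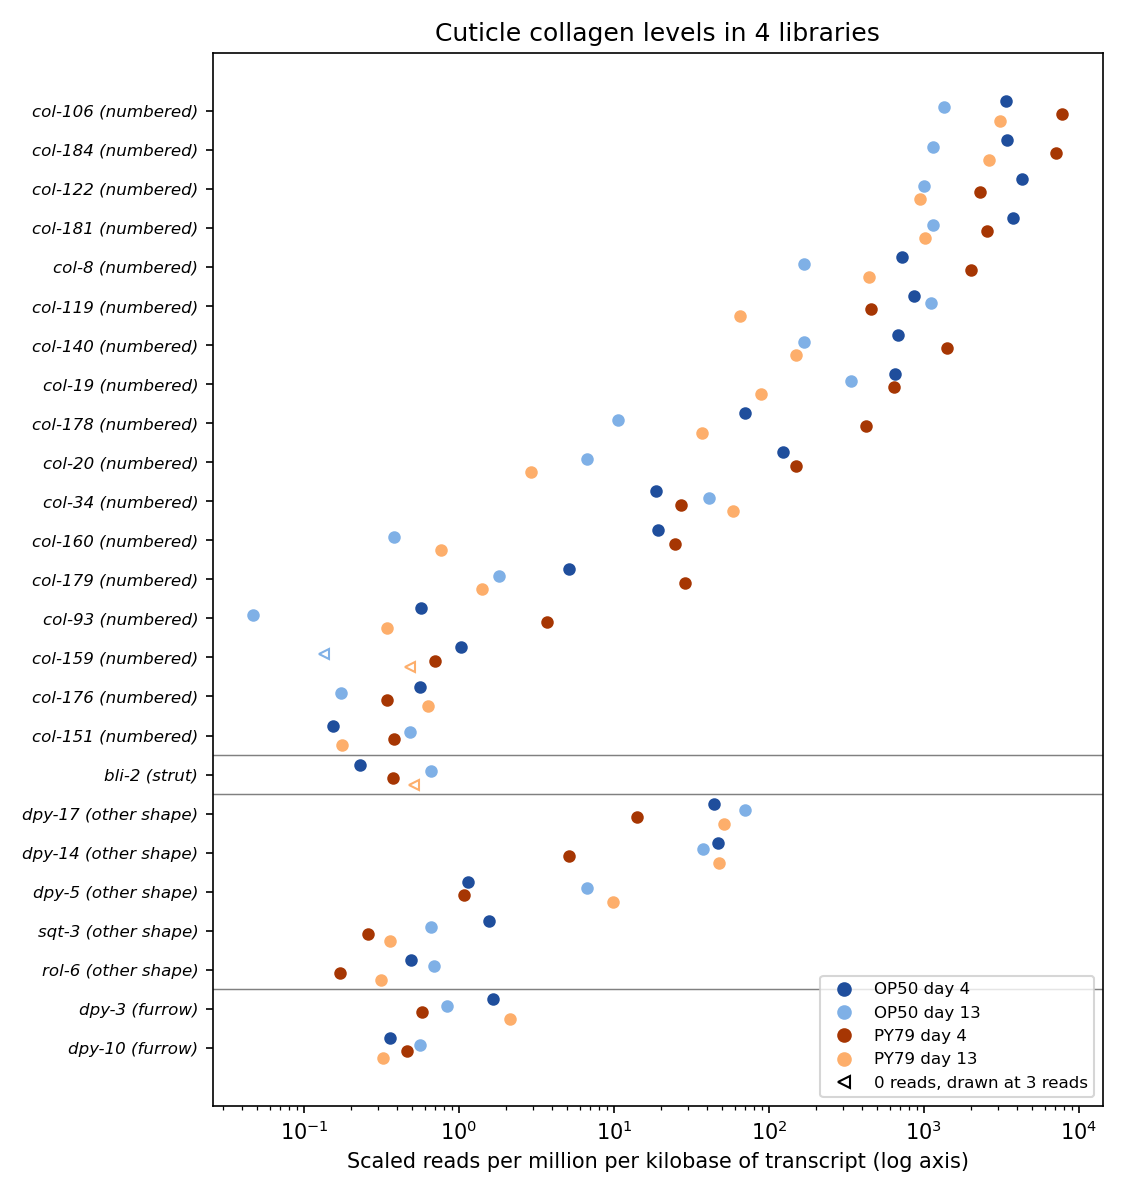
Level of each of the 25 collagens that had at least 10 reads in some library, as CPM per kilobase of transcript on a log axis, with 1 point per library and open triangles for 0 reads drawn at the level of 3 reads. The numbered collagens run from about the floor to 7789 for col-106 in PY79 Day 4, whereas the highest shape collagen, dpy-17, reached 69.9 in OP50 Day 13.

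A further tier of numbered collagens lay between 65.2 and 2027 CPM per kilobase. It held col-8 (F11H8.3), col-119 (C53B4.5), col-140 (F26F12.1) and col-19 (ZK1193.1), the adult-specific collagen that LIN-29 switches on at the end of larval life. In col-19 the levels were 654, 340, 643 and 89.3 CPM per kilobase, so the adult marker was well read in all 4 libraries. Below these followed col-178, col-20, col-34, col-160 and col-179, each with more than 100 reads in at least 1 library.

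The shape collagens were much lower. Only dpy-17 (F54D8.1), which acts together with SQT-3 in the larval cuticle, and dpy-14 (H27M09.4), whose loss shortens the body, exceeded 10 CPM per kilobase, at 44.3, 69.9, 14.004 and 51.4 for dpy-17 and at 47.1, 37.5, 5.10 and 47.4 for dpy-14. Reads of dpy-17 numbered 1301, 1647, 84 and 334, and those of dpy-14 numbered 1310, 838, 29 and 292. These genes thus supplied 2611 of the 2799 shape collagen reads in OP50 Day 4, 2485 of 2716 in OP50 Day 13, 113 of 135 in PY79 Day 4 and 626 of 697 in PY79 Day 13.

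The furrow collagens were near the limit of detection. Of dpy-2, dpy-3, dpy-7, dpy-8 and dpy-10, which are all needed to form furrows, only dpy-3 and dpy-10 had 10 reads in some library. The reads of dpy-3 (EGAP7.1) numbered 42, 17, 3 and 12, and those of dpy-10 (T14B4.7) numbered 15, 19, 4 and 3. The value of dpy-10 depended on the transcript used. Its edgeR log2 change on PY79 was -0.20 here and -1.62 with its 4 transcripts summed, and neither passed. There were 3, 2, 0 and 1 reads of dpy-7, 2, 4, 1 and 0 of dpy-8, and 0, 3, 0 and 1 of dpy-2. At this depth no difference in dpy-2, dpy-7 or dpy-8 was detectable.

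The roller and remaining shape collagens were also sparse. In sqt-3, needed for normal body shape, the reads numbered 59, 20, 2 and 3, and in dpy-5 (F27C1.8), whose loss makes worms short and fat, they numbered 26, 122, 5 and 49. Reads of rol-6, whose dominant mutant is the common roller marker, numbered 14, 16, 1 and 2. The other members gave 7, 9, 1 and 0 reads for sqt-1, 7, 3, 2 and 0 for dpy-13, and 3, 2, 1 and 0 for lon-3. The strut collagens, whose loss blisters the adult cuticle, gave 6, 14, 2 and 0 reads for bli-2 and 4, 0, 0 and 0 for bli-1.

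Share of the collagen reads does not depend on how libraries are scaled, and the balance among the 4 most abundant genes differed with diet more than with age. The genes were paired by their rank of mean level over these same libraries, the higher ranks against the lower. The contrast of the pairs therefore describes the values that formed them and gives no separate support. The pair col-106 and col-184 held 35.3% of the collagen reads in OP50 Day 4 (exact interval 35.2 to 35.5) and 36.045% in OP50 Day 13 (35.8 to 36.3), but 57.4% (57.2 to 57.7) and 63.8% (63.3 to 64.2) on PY79. The pair col-122 and col-181 held 47.5%, 35.6%, 21.8% and 25.1%. The ratio of the first pair to the second was 3.55-fold higher on PY79 than on OP50 at Day 4 (3.49 to 3.60) and 2.51-fold higher at Day 13 (2.45 to 2.57). With age it was 1.36-fold higher on OP50 (1.34 to 1.38) and 1.04-fold lower on PY79 (1.01 to 1.07). Within each pair the genes kept closer proportions, with 1.04, 0.867, 0.930 and 0.868 reads of col-184 for each read of col-106 and 0.983, 0.752, 0.774 and 0.793 reads of col-122 for each of col-181. Whether reads can be assigned to both genes of a pair was not tested.

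**Figure D2:**
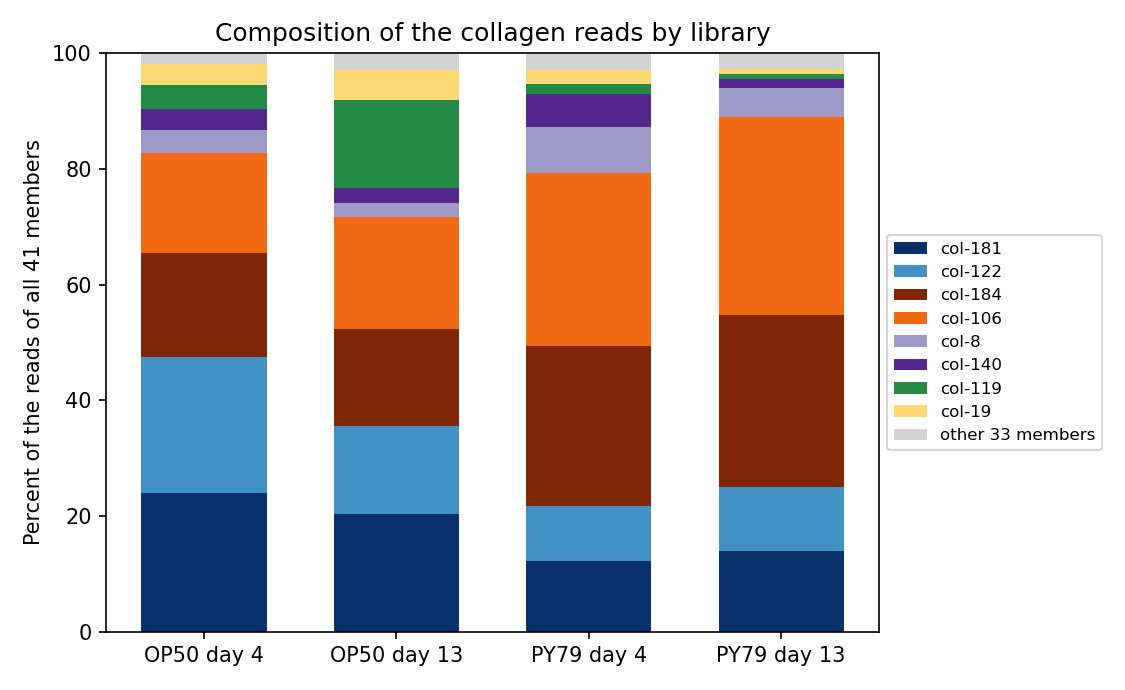
Share of the reads of all 41 collagens taken by each of the 8 most abundant and by the other 33 members, in percent, with 1 bar per library. On OP50 the pair col-106 and col-184 took 35.3% and 36.045%, and on PY79 it took 57.4% and 63.8%, while col-119 took 15.3% in OP50 Day 13 and 0.699% in PY79 Day 13.

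Set against the abundant numbered collagens, the shape collagens held a larger share at Day 13 than at Day 4 on either food. On OP50 their share was 0.607% at Day 4 (0.584 to 0.629) and 2.05% at Day 13 (1.97 to 2.12), and the odds of a shape read against a numbered read were 3.42-fold higher at Day 13 (3.25 to 3.61). On PY79 the share was 0.107% (0.0899 to 0.127) and 1.47% (1.36 to 1.58), with odds 13.9-fold higher (11.5 to 16.7). Without dpy-14 and dpy-17 the odds were 4.33-fold higher on OP50 (3.58 to 5.26) and 8.67-fold higher on PY79 (5.38 to 13.99). Without col-106, col-184, col-122 and col-181 in the numbered class they were 2.13-fold and 29.3-fold higher.

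The same odds compared between foods were 5.69-fold lower on PY79 at Day 4 (4.78 to 6.76) and 1.40-fold lower at Day 13 (1.29 to 1.53). At Day 13 this direction depended on which genes were summed. Without dpy-14 and dpy-17 the odds were 1.17-fold lower (0.898 to 1.53), and without the 4 most abundant numbered collagens they were 1.95-fold higher (1.78 to 2.13).

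**Figure D3:**
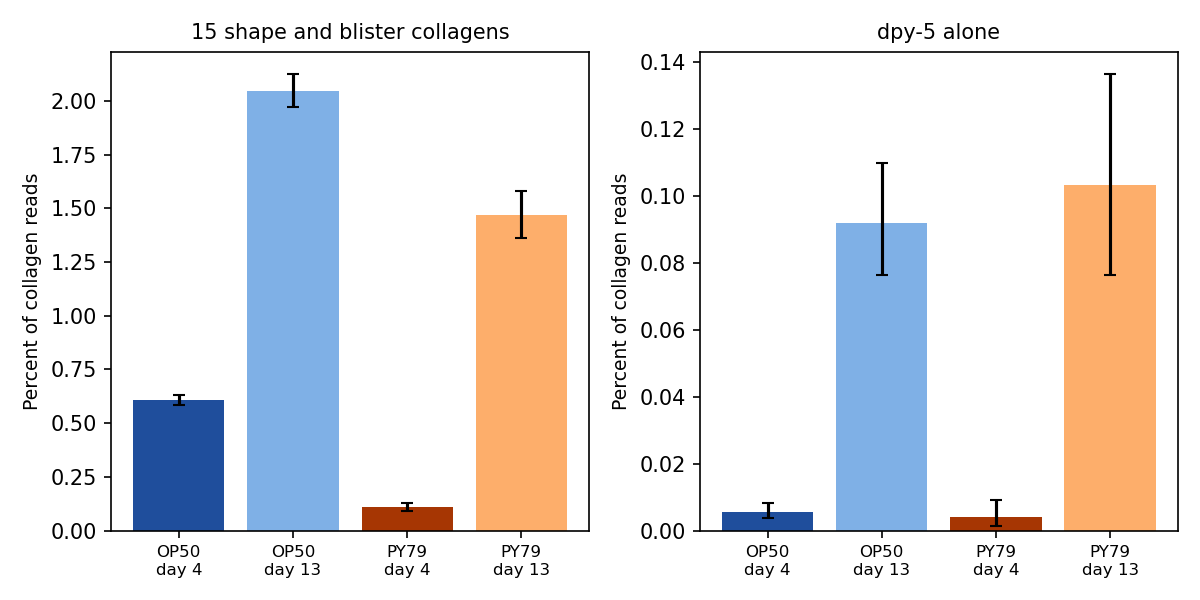
Percent of the collagen reads that came from the 15 shape and blister collagens together (left) and from dpy-5 alone (right) in each library, with exact 95% intervals that cover counting error only. The shape collagens took 0.607% and 2.05% on OP50 and 0.107% and 1.47% on PY79, and dpy-5 took 0.00563% and 0.0919% on OP50 and 0.00397% and 0.103% on PY79.

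The first comparison asked how collagen transcripts differed between Day 13 and Day 4 on the usual food. In the OP50 libraries most abundant numbered collagens were lower at Day 13, while dpy-5, col-34 and the sparse bli-2 were counted higher. Of the 25 collagens with enough reads, 14 were counted lower and 3 higher, where 18.9% and 14.6% of all genes were counted so. The members were chosen with earlier results of these data known, so such counts describe this list and not collagens at large. The 14 were 13 numbered collagens and sqt-3. Of those counted higher, bli-2, with 6 reads at Day 4 and 14 at Day 13, had enough reads only in OP50 Day 13. Of those counted lower, col-159 (29 and 0 reads) and col-176 (16 and 4 reads) had enough reads only in OP50 Day 4. Also counted lower, col-93 (15 and 1 reads) had enough reads only in Day 4 libraries. The read filter itself favoured these directions, so the calls of these genes say little about age. The median log2 ratio was -1.72 for the 17 numbered collagens, 0.53 for the 8 shape collagens and 0.02 for all genes. Summed over all 26, the reads of the numbered collagens were 2.83-fold lower (2.81 to 2.85), and those of the 15 shape collagens were 1.21-fold higher (1.15 to 1.27) with TMM, a direction that turns with total-read scaling.

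On PY79 the numbered collagens were again lower at Day 13, and more shape collagens were higher. Here 13 collagens were counted lower and 4 higher, where 7.97% and 6.48% of all genes were counted so. All 13 were numbered, and the 4 were dpy-5, dpy-14, dpy-17 and col-34. Among the 13, col-93 (20 and 2 reads) had enough reads only in Day 4 libraries, so the read filter favoured its direction. The median log2 ratio was -2.80 for the numbered collagens, 1.23 for the shape collagens and -0.11 for all genes. The sum of the numbered collagens was 2.91-fold lower (2.88 to 2.94), and that of the shape collagens was 4.77-fold higher (3.96 to 5.77).

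On both foods 11 numbered collagens were counted lower at Day 13, and col-34 and dpy-5 were counted higher on both, where 3.24% of all genes were counted lower on both foods and 3.31% higher. The age comparisons share no library. In the additive edgeR model with Benjamini-Hochberg adjustment, 10 members fell with age and 1 rose, where 4.05% and 3.52% of all genes did so. Among those that fell, col-93, col-159 and col-160 reached 10 reads only in Day 4 libraries, so the read filter favoured their direction. With DESeq2 size factors edgeR called the same 10 and dpy-5, and with total reads without the 3% most expressed genes it called 9 of the 10 and dpy-5. With total reads 0 members fell and 0 rose in edgeR, although 13 and 1 had an unadjusted p under 0.05. The log2 changes barely moved there, from -4.88 to -4.95 for col-20 and from 2.78 to 2.70 for dpy-5, while the prior degrees of freedom of the fit were 4.83 in place of infinite. DESeq2 called 10 lower, 8 of them among the edgeR calls, and 1 higher. It gave no adjusted p for 5 of the 25 members, col-159 among them.

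Most body muscle markers and several intestine markers were also lower at Day 13 in the same libraries. Of all genes 18.9% were counted lower on OP50 and 7.97% on PY79, and 4.05% fell with age in edgeR. All 7 body muscle markers had enough reads, and 7 were counted lower on OP50 and 5 on PY79, with median log2 ratios of -2.87 and -1.41. In edgeR 5 of the 7 fell with age, among them the myosin heavy chain unc-54, with 742, 80, 90 and 15 reads. Summed, the muscle markers were at 1319, 265, 364 and 139.0 CPM. All 8 intestine markers had enough reads, and 5 were counted lower on OP50 and 4 on PY79, with median log2 ratios of -1.36 and -1.90. The yolk protein genes vit-2 and vit-6 fell in edgeR. The intestine sum was at 20636, 3868, 16894 and 3013 CPM, and most of it in each library was yolk protein transcript. In vit-2 there were 7655, 1416, 3119 and 424 CPM, and in vit-6 there were 12599, 2266, 13477 and 2521 CPM. The sum therefore says little of the other intestine markers. Of the 8 germline markers 2 were counted lower on OP50 and 1 on PY79, near the shares of all genes. With age 0 of the germline markers rose or fell in edgeR (1 was lower at an unadjusted p under 0.05, and DESeq2 called 0). Their sum was at 668, 683, 396 and 305 CPM. The part of these tissues' amounts in the collagen values was not tested.

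The most abundant collagens had moderate differences with age. For col-106 the fold was 2.50 lower on OP50 (2.47 to 2.54) and 2.50 lower on PY79 (2.46 to 2.55), and its edgeR log2 change of -1.32 did not pass, with a Benjamini-Hochberg adjusted p = 0.11 (0.11 to 0.26 over 7 alternatives). The values for col-184 were 3.00-fold lower (2.96 to 3.05) and 2.68-fold lower (2.63 to 2.74). Those for col-181 were 3.29-fold lower (3.24 to 3.33) and 2.52-fold lower (2.45 to 2.59). Neither passed in edgeR, where the Benjamini-Hochberg adjusted p was 0.054 for col-184 (0.046 to 0.15 over 7 alternatives) and 0.052 for col-181 (0.047 to 0.14). The fourth, col-122, fell, being 4.30-fold lower on OP50 (4.24 to 4.36) and 2.46-fold lower on PY79 (2.38 to 2.54), with an edgeR Benjamini-Hochberg adjusted p = 0.025 (0.021 to 0.15 over 7 alternatives).

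The steepest differences were in collagens of middle abundance. In col-20 (F11G11.11, chromosome II) there were 3230 and 141 reads on OP50 and 806 and 17 on PY79, so both Day 13 libraries lay far below both Day 4 libraries. It fell by 4.88 on the log2 scale in edgeR at a Benjamini-Hochberg adjusted p = 4.7e-11 (6.9e-15 to 0.075 over 7 alternatives). Its neighbours on the same clone, col-17 and col-73, had 0 reads and 5, 2, 0 and 0 reads. In col-160 (F57B1.4, chromosome V) there were 564 and 9 reads on OP50 and 149 and 5 on PY79, an edgeR log2 change of -5.35 with a Benjamini-Hochberg adjusted p = 2.3e-10 (6.3e-11 to 0.075 over 6 alternatives). The adjacent col-159, which overlaps col-160 on the same strand, had 29, 0, 4 and 0 reads, and it was lower by a factor of at least 7.76 on OP50 and at least 1.44 on PY79. It also fell in edgeR, with a Benjamini-Hochberg adjusted p = 0.0066 (0.0041 to 0.21 over 6 alternatives), and since overlapping genes may share reads its value is uncertain.

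The neighbours col-178 (C34F6.2) and col-179 (C34F6.3) on chromosome X both fell with age. There were 1786, 218, 2208 and 210 reads of col-178, which was 6.58-fold lower on OP50 (5.71 to 7.60) and 11.4-fold lower on PY79 (9.88 to 13.2). There were 132, 37, 150 and 8 reads of col-179, which was 2.86-fold lower on OP50 (1.98 to 4.24) and 20.3-fold lower on PY79 (10.05 to 47.9). The edgeR Benjamini-Hochberg adjusted p was 9.3e-06 for col-178 (1.7e-07 to 0.075 over 7 alternatives) and 0.00089 for col-179 (0.00080 to 0.18 over 6). Reads of col-178 exceeded those of col-179 by 13.5, 5.89, 14.7 and 26.3 times, so the neighbours did not keep 1 ratio.

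The members col-8, col-140 and col-93 also fell. For col-8 the reads numbered 17675, 3298, 10081 and 2387, which made it 4.30-fold lower on OP50 (4.14 to 4.47) and 4.58-fold lower on PY79 (4.38 to 4.79). For col-140 they numbered 16869, 3306, 7138 and 811, or 4.10-fold lower (3.95 to 4.25) and 9.53-fold lower (8.87 to 10.3). For col-93 there were only 15, 1, 20 and 2 reads, or 12.04-fold lower on OP50 (1.85 to 507) and 10.8-fold lower on PY79 (2.63 to 95.6). Since col-93 had enough reads only in the Day 4 libraries, the read filter favoured this direction. The edgeR Benjamini-Hochberg adjusted p values were 0.0025 for col-8 (0.00042 to 0.082 over 7 alternatives), 0.00017 for col-140 (3.3e-05 to 0.075) and 0.014 for col-93 (0.0097 to 0.33 over 6). Of the clone that carries col-93, the other members col-92 and col-94 had at most 1 read in a library.

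The adult-specific col-19 and the abundant col-119 behaved differently on the foods. In col-19 the reads numbered 16114, 6711, 3237 and 487, which was 1.93-fold lower with age on OP50 (1.87 to 1.98) and 7.20-fold lower on PY79 (6.54 to 7.94). It fell in the additive edgeR model, with a log2 change of -1.89 and a Benjamini-Hochberg adjusted p = 0.018 (0.017 to 0.17 over 7 alternatives). In col-119 the reads numbered 19698, 20352, 2138 and 332. It was 1.29-fold higher at Day 13 on OP50 (1.26 to 1.31), a difference that total-read scaling brings close to none, and 6.98-fold lower on PY79 (6.21 to 7.86). As a share of collagen reads col-119 held 4.27% and 15.3% on OP50, and 1.70% and 0.699% on PY79. With no replicate libraries, an interaction of age and food in these genes was not testable.

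**Figure D4:**
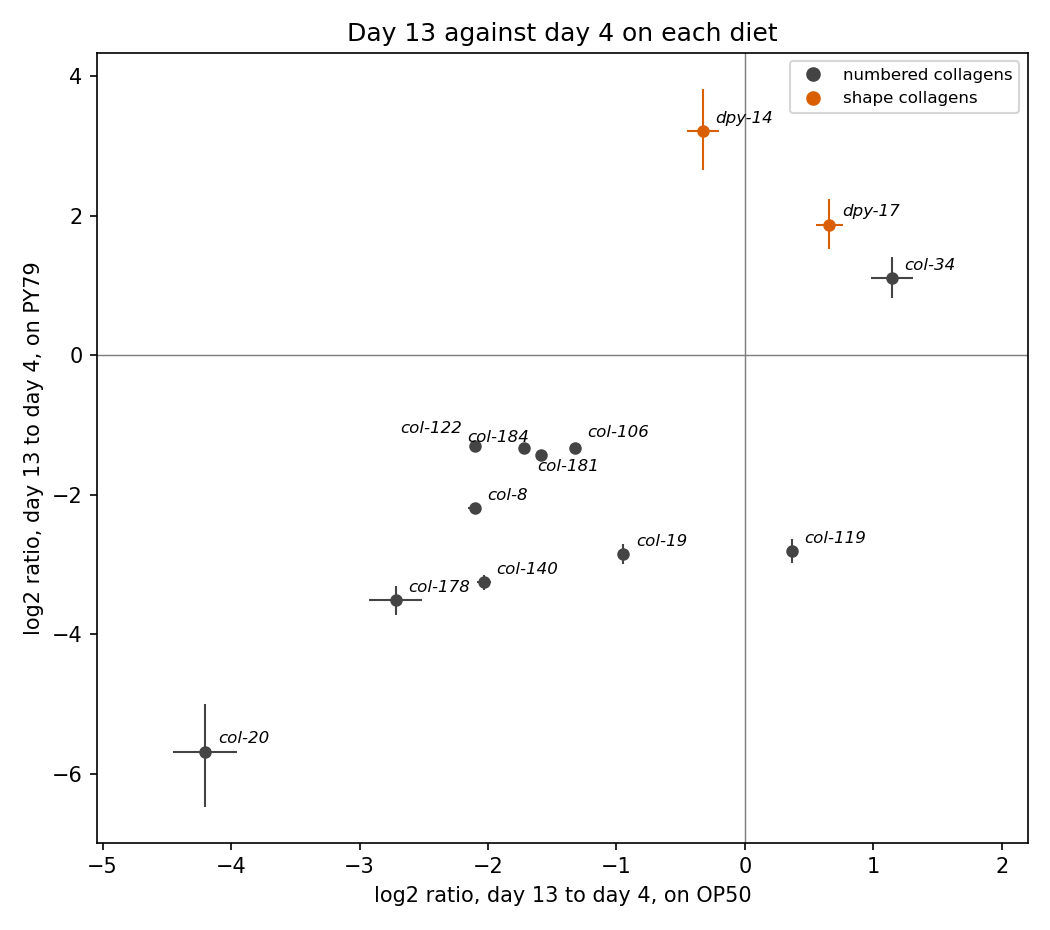
Log2 ratio of Day 13 to Day 4 on OP50 (x axis) and on PY79 (y axis) for the 13 collagens with at least 10 reads in every library, with bars for the exact 95% intervals of each ratio. The numbered collagens other than col-34 and col-119 lie below 0 on both axes. At Day 13 col-119 was 1.29-fold higher on OP50 and 6.98-fold lower on PY79, and dpy-14 was 1.25-fold lower and 9.29-fold higher.

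Among the shape collagens, dpy-5 alone rose with age in edgeR. It was 5.85-fold higher at Day 13 on OP50 (3.80 to 9.31) and 9.05-fold higher on PY79 (3.62 to 29.1), with a log2 change of 2.78 and a Benjamini-Hochberg adjusted p = 0.00048 (0.00021 to 0.11 over 6 alternatives). Both Day 13 libraries, at 5.75 and 8.38 CPM, lay above both Day 4 libraries, at 0.984 and 0.926 CPM. For dpy-17 the fold was 1.58 higher on OP50 (1.47 to 1.70) and 3.67 higher on PY79 (2.88 to 4.72), and it did not pass in edgeR, with a Benjamini-Hochberg adjusted p = 0.22 (0.14 to 0.55 over 7 alternatives). The fold of dpy-14 was 1.25 lower on OP50 (1.15 to 1.37) and 9.29 higher on PY79 (6.34 to 14.1), with an edgeR Benjamini-Hochberg adjusted p = 0.28 (0.22 to 0.77 over 7 alternatives). In both genes PY79 Day 4 was the lowest library, at 5.37 CPM for dpy-14 and 15.6 CPM for dpy-17, and PY79 Day 13, at 49.9 and 57.1 CPM, lay close to or between the OP50 libraries.

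The sparse shape collagens gave wide intervals. For dpy-3 the fold was 1.98 lower on OP50 (1.10 to 3.72) and 3.69 higher on PY79 (0.996 to 20.4), and neither was counted. For sqt-3 it was 2.37 lower on OP50 (1.41 to 4.15), which was counted, and 1.38 higher on PY79 (0.159 to 16.6). For bli-2 it was 2.91 higher on OP50 (1.05 to 9.23), with 2 and 0 reads on PY79. Since bli-2 had enough reads only in OP50 Day 13, the read filter favoured this direction. The differences of rol-6 and dpy-10 with age were within their intervals on both foods.

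The numbered collagen col-34 (F36A4.10, chromosome IV) went against the direction of most of its class. Its reads numbered 472, 838, 141 and 330, and it was 2.21-fold higher at Day 13 on OP50 (1.97 to 2.48) and 2.16-fold higher on PY79 (1.77 to 2.65). In edgeR it did not pass, with a log2 change of 1.13 and a Benjamini-Hochberg adjusted p = 0.32 (0.23 to 0.55 over 7 alternatives). Its share of the collagen reads was 0.102% and 0.631% on OP50 and 0.112% and 0.694% on PY79.

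The diet comparison at Day 4 asked how the collagens differed in young adults that had grown up on PY79. At that age 7 numbered collagens were counted higher on PY79 and 3 shape collagens (dpy-14, dpy-17 and sqt-3) lower, where 25.4% and 24.3% of all genes were counted higher and lower. A count of 7 in 25 is near that background and 3 in 25 is below it. The median log2 ratio was 0.55 for the numbered collagens, -1.33 for the shape collagens and -0.09 for all genes. The numbered sum was 1.34-fold higher on PY79 (1.33 to 1.35), and the shape sum was 4.24-fold lower (3.56 to 5.07).

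At Day 13 there were 5 members counted higher on PY79 and 3 lower, where 22.6% and 22.8% of all genes were counted so, which is above the members' share in each direction. Those higher were col-8, col-106, col-178, col-184 and dpy-3, and those lower were col-19, col-20 and col-119. The median log2 ratio was 0.00 for the numbered collagens, which is the value of col-159 with 0 reads in both libraries, -0.59 for the shape collagens, which turns to 0.19 with total reads, and 0.01 for all genes. The numbered sum was 1.31-fold higher on PY79 (1.29 to 1.32), or 2.30-fold higher with total reads (2.28 to 2.32). The shape sum was 1.07-fold lower (0.989 to 1.17), an interval that includes 1, and it turns to 1.64-fold higher with total reads (1.51 to 1.78) and to 1.27-fold higher without the 3% most expressed genes (1.17 to 1.38).

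The members higher on PY79 at both ages were col-106, col-184, col-8 and col-178, where 14.4% of all genes were counted higher at both days, and these diet comparisons share no library. For col-178 the fold was 6.05 higher at Day 4 (5.68 to 6.44) and 3.49 higher at Day 13 (2.88 to 4.24). For col-8 it was 2.79 higher (2.72 to 2.86) and 2.62 higher (2.49 to 2.77). For col-106 it was 2.29 higher (2.27 to 2.32) and 2.30 higher (2.25 to 2.34), and for col-184 it was 2.05 higher (2.03 to 2.08) and 2.30 higher (2.25 to 2.35). In edgeR col-178, col-8 and col-93 rose on PY79, where 14.8% of all genes did so. The Benjamini-Hochberg adjusted p was 0.0011 for col-178 (0.00013 to 0.030 over 7 alternatives), 0.028 for col-8 (0.0049 to 0.13) and 0.017 for col-93 (0.0041 to 0.19 over 6). The edgeR Benjamini-Hochberg adjusted p was 0.063 for col-106 (0.013 to 0.22 over 7 alternatives) and 0.086 for col-184 (0.019 to 0.29), and both passed with total reads.

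In contrast, col-119 fell on PY79 and was the only member to do so, where 17.03% of all genes fell. It was 1.88-fold lower at Day 4 (1.80 to 1.97) and 16.9-fold lower at Day 13 (15.2 to 18.9), with an edgeR log2 change of -2.49 and a Benjamini-Hochberg adjusted p = 0.00080 (2.8e-05 to 0.098 over 7 alternatives). Its 960 CPM in OP50 Day 13 stood against 56.8 CPM in PY79 Day 13. The adult-specific col-19 was at 610 and 600 CPM in the Day 4 libraries, a difference of 1.02-fold (0.980 to 1.06). At Day 13 it was 3.80-fold lower on PY79 (3.47 to 4.18). The fold of col-20 was 1.22 higher on PY79 at Day 4 (1.13 to 1.32) and 2.29 lower at Day 13 (1.38 to 4.04).

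The abundant col-122 was 1.86-fold lower on PY79 at Day 4 (1.82 to 1.89) and 1.06-fold lower at Day 13 (1.03 to 1.09), and col-181 was 1.46-fold lower at Day 4 (1.44 to 1.49) and 1.12-fold lower at Day 13 (1.09 to 1.15). With total reads in place of TMM, the Day 13 values of both turn to higher on PY79. For col-140 the fold was 2.07 higher at Day 4 (2.01 to 2.13) and 1.12 lower at Day 13 (1.04 to 1.22), which total reads also turn to higher. For col-34 it was 1.46 higher (1.20 to 1.77) and 1.43 higher (1.25 to 1.62).

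**Figure D5:**
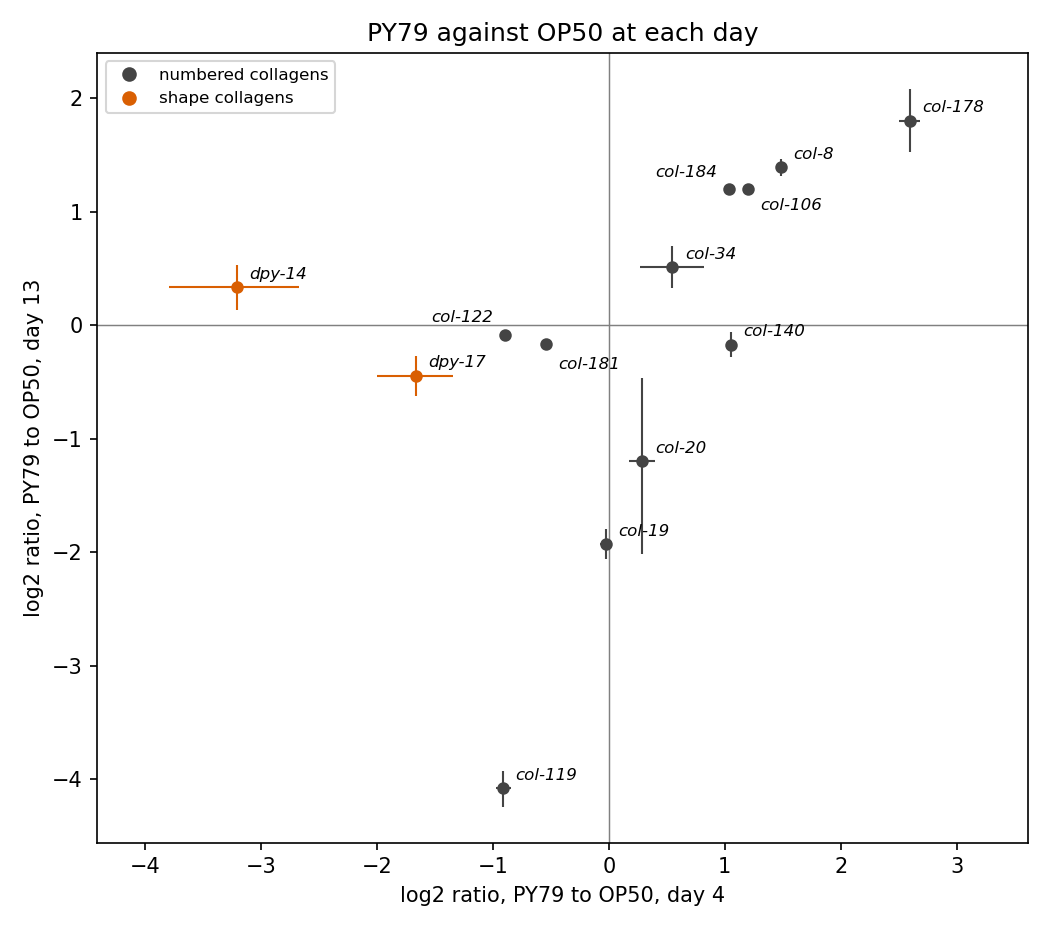
Log2 ratio of PY79 to OP50 at Day 4 (x axis) and at Day 13 (y axis) for the 13 collagens with at least 10 reads in every library, with bars for the exact 95% intervals of each ratio. The values of col-8, col-34, col-106, col-178 and col-184 lie above 0 at both days. On PY79 col-119 was 1.88-fold and 16.9-fold lower, and dpy-14 was 9.23-fold lower at Day 4 and 1.26-fold higher at Day 13.

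The shape collagens dpy-14, dpy-17 and sqt-3 were lower on PY79 at Day 4. For dpy-14 the fold was 9.23 lower on PY79 at Day 4 (6.40 to 13.8) and 1.26 higher at Day 13 (1.10 to 1.45). For dpy-17 it was 3.17 lower at Day 4 (2.54 to 4.00), and 1.36 lower at Day 13 (1.21 to 1.53), a value that turns to higher with total reads. For sqt-3 it was 6.03 lower at Day 4 (1.60 to 50.9), with 59 reads on OP50 and 2 on PY79, and 1.84 lower at Day 13 (0.545 to 9.66). Across foods dpy-5 was 1.06-fold lower at Day 4 (0.402 to 3.54), or higher with total reads, and 1.46-fold higher at Day 13 (1.02 to 2.04).

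Markers of the larval molting cycle were low. Their sum went the same way as the shape collagen sum with age on PY79 and with diet at Day 4. With age on OP50 the shape sum was instead 1.21-fold higher with TMM (1.15 to 1.27). Its diet difference at Day 13 was 1.07-fold lower (0.989 to 1.17), an interval that includes 1. Single markers did not all follow the marker sum. Of 14 such genes 13 were found, and 5 had 10 reads in some library. Summed, they had 210, 108, 13 and 67 reads, or 7.95, 5.09, 2.41 and 11.5 CPM. Their sum was 1.56-fold lower with age on OP50 (1.23 to 1.99) and 4.76-fold higher on PY79 (2.60 to 9.40). Between foods it was 3.30-fold lower on PY79 at Day 4 (1.89 to 6.30) and 2.25-fold higher at Day 13 (1.63 to 3.08). Much of the OP50 sum was mlt-10, with 115, 42, 3 and 5 reads. It was counted lower on PY79 at Day 4, but at Day 13 the interval of its lower value included 1. With diet mlt-10 fell in edgeR with a Benjamini-Hochberg adjusted p = 0.018 (0.0070 to 0.16 over 6 alternatives). In contrast, qua-1, with 22, 12, 6 and 28 reads, rose on PY79 with an edgeR Benjamini-Hochberg adjusted p = 0.024 (0.0041 to 0.31 over 6 alternatives). Its fold was 1.33 higher at Day 4 (0.443 to 3.39), an interval that includes 1, and 8.46 higher at Day 13 (4.17 to 18.3). The reads of noah-2 numbered 27, 25, 0 and 19, so that it was lowest in PY79 Day 4 but 1.15 times as high at Day 13 as at Day 4 on OP50. Without mlt-10 the sum was 1.16-fold lower with age on OP50 (0.835 to 1.61), 5.72-fold higher with age on PY79 (2.91 to 12.5), 1.94-fold lower on PY79 at Day 4 (1.01 to 4.18) and 3.41-fold higher at Day 13 (2.37 to 4.89). Embryo markers, of which 7 of 10 were found, had 86, 81, 25 and 9 reads in sum, or 3.26, 3.82, 4.63 and 1.54 CPM. The part of larvae, embryos or their RNA in the shape collagen values was not tested.

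Markers of the hypodermis, the source of cuticle collagen, were few in whole worms. Of 8 genes 5 had 10 reads in some library, nhr-25 had at most 1 read, elt-3 at most 7, and che-14 was at 0 in OP50 Day 13 and PY79 Day 4. The sum was 45.8, 36.8, 18.3 and 22.4 CPM. In it lin-26, a zinc finger factor that maintains epidermal fate, had 1000 of 1210, 663 of 780, 58 of 99 and 56 of 131 reads. The sum was 2.50-fold lower on PY79 than on OP50 at Day 4 (2.03 to 3.10) and 1.64-fold lower at Day 13 (1.36 to 1.99), whereas the numbered collagens were 1.34-fold and 1.31-fold higher. These lower sums came from lin-26, since without it the markers were at 7.95, 5.52, 7.59 and 12.8 CPM, a fold of 1.05 lower on PY79 at Day 4 (0.746 to 1.501) and 2.32 higher at Day 13 (1.72 to 3.13). In this remainder vab-10 had 156 of 210, 85 of 117, 16 of 41 and 50 of 75 reads. Its level on PY79 was 0.502 times that on OP50 at Day 4, so the near-equal Day 4 sums do not describe each marker. At Day 4 mup-4, with 13 and 12 reads on OP50 and PY79, was counted higher on PY79. With 7 and 6 reads there, elt-3 had too few reads to be counted. At Day 13 wrt-10, with 6 and 17 reads, and vab-10, with 85 and 50, were counted higher. With age the sum was 1.25-fold lower on OP50 (1.14 to 1.36) and 1.22-fold higher on PY79 (0.934 to 1.60), or 1.44-fold lower (1.14 to 1.82) and 1.69-fold higher (1.14 to 2.53) without lin-26, whereas the numbered collagens were lower on both. The part of the amount of hypodermis in the collagen values was not tested.

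The enzymes that modify and process collagen chains gave no call for age. Of the 9 with enough reads, 0 rose or fell in edgeR, 0 had an unadjusted p under 0.05, and DESeq2 called 0. With diet, 2 of these 9 rose and 4 fell on PY79, where 14.8% and 17.03% of all genes did so. Those that fell included dpy-18, an alpha subunit of the prolyl 4-hydroxylase, with 760, 561, 17 and 28 reads, which was 9.14-fold lower on PY79 at Day 4 (5.67 to 15.8) and 5.53-fold lower at Day 13 (3.78 to 8.39). Its edgeR Benjamini-Hochberg adjusted p was 0.00022 (2.5e-05 to 0.046 over 7 alternatives). The protein disulfide isomerase pdi-3, with 1341, 1795, 62 and 51 reads, was 4.42-fold lower on PY79 at Day 4 (3.43 to 5.80) and 9.71-fold lower at Day 13 (7.35 to 13.1). The others that fell were dpy-31, the protease that trims SQT-3, with 196, 75, 6 and 12 reads, and the prolyl isomerase fkb-5, with 408, 185, 13 and 16 reads. Those that rose were dpy-11, a thioredoxin-like protein of the hypodermis, with 98, 138, 92 and 77 reads, and fkb-3 with 11, 7, 17 and 20 reads. The edgeR Benjamini-Hochberg adjusted p reached at most 0.038 for pdi-3 and 0.030 for fkb-3 over the alternatives, but 0.28 for dpy-31, 0.099 for fkb-5 and 0.13 for dpy-11, which thus lost the call in at least 1 of them.

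Of the 5 enzymes and partners that cross-link the cuticle, only the peroxidase skpo-1 had enough reads (206, 158, 245 and 158), and it rose on PY79, being 5.82-fold higher at Day 4 (4.82 to 7.04) and 3.63-fold higher at Day 13 (2.89 to 4.55). The dual oxidase bli-3 had at most 3 reads in a library. Of 17 regulators of collagen genes and body size, 13 had enough reads, and with diet 1 rose (lon-1) and 2 fell (lin-26 and sma-10, a member of the BMP pathway), beside 14.8% and 17.03% of all genes. Over the alternatives the edgeR Benjamini-Hochberg adjusted p reached 0.13 for both lon-1 and lin-26, which thus lost the call, and 0.040 for sma-10. With age 0 of the 13 rose or fell in edgeR, where 2 were lower at an unadjusted p under 0.05. DESeq2 called 0, but it gave no adjusted p for 2 of the 13. The reads of lon-1, a gene repressed by BMP signalling that limits body length, numbered 1672, 357, 426 and 973, so that its fold on PY79 was 1.25 higher at Day 4 (1.12 to 1.39) and 9.88 higher at Day 13 (8.74 to 11.2). The regulator lin-29, which switches on col-19, had 17, 14, 2 and 5 reads, and blmp-1 had 15, 0, 1 and 0.

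Of 11 further cuticle and apical matrix genes 8 had enough reads, and dpy-9 and sqt-2 fell on PY79 in edgeR, with 98, 82, 4 and 3 reads and 48, 53, 2 and 3 reads, beside the 17.03% of all genes that fell. Like dpy-4 and rol-8 of this list, they bear body-shape names but are not among the 41 members. Statements on the shape collagens leave them out. The edgeR Benjamini-Hochberg adjusted p reached 0.047 for dpy-9 and 0.17 for sqt-2 over the alternatives. With age 0 of the 8 rose or fell in edgeR, where 1 was higher at an unadjusted p under 0.05. DESeq2 called 0, but it gave no adjusted p for 4 of the 8. The basement membrane collagens are made by other tissues and line organs rather than the skin surface. Of these emb-9 and let-2, the type IV chains, fell with age in edgeR but not in DESeq2, and cle-1 passed in neither. Reads of emb-9 numbered 197, 18, 58 and 30, or 8.78-fold lower on OP50 (5.41 to 15.1) and 2.09-fold lower on PY79 (1.33 to 3.37), with a Benjamini-Hochberg adjusted p = 0.016 (0.013 to 0.35 over 7 alternatives).

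The table holds 127 other genes named col, of which 78 had enough reads. With age on OP50 21 of the 78 were counted lower and 15 higher, and on PY79 14 were lower and 9 higher, where 18.9% and 14.6% of all genes were counted so on OP50 and 7.97% and 6.48% on PY79. Their median log2 ratio was -0.08 on OP50 and -0.11 on PY79, beside -1.72 and -2.80 for the 17 numbered members. In edgeR 10 of the 78 fell with age and 4 rose, where 4.05% and 3.52% of all genes did so, and with diet 4 fell and 2 rose, where 17.03% and 14.8% did so. These genes held 134898, 39688, 39964 and 8593 reads, so that the 41 collagens described here carried most collagen reads of each library. The members were chosen with earlier results of these data known, and the difference from the other col genes was not tested.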

How the data were processed

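RNA was measured in 4 libraries of whole N2 worms, 1 for each food and day. Poly(A) RNA was made into barcoded libraries enriched for transcript 3′ ends, and the submitters' processing notes name Bowtie 0.12.7. The authors deposited raw read counts per transcript (24775 lines), with no normalization. Build, annotation, counter and strand setting were not given in the sources used here, and coordinates are therefore omitted.

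The line with most reads was taken for each of 17096 genes, and symbols, lengths and overlaps came from Ensembl WBcel235. The 2 lines that name no gene held 0 reads (0% of the total). The 9032 genes reaching 10 reads in some library were scaled by TMM (factors 0.922, 0.743, 1.12 and 1.31). Ratios carry exact Clopper-Pearson 95% intervals, conditional on the summed reads, odds carry normal 95% intervals on the log scale, log2 ratios use a prior count of 1, and a library at 0 reads was set to a floor of 3 reads for a lower bound. Libraries had no molecular identifiers, so these intervals and bounds describe counting error alone.

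Across the libraries, genes were tested with edgeR 4.0.16 (glmQLFit and glmQLFTest, R 4.3.3) with diet and day as additive terms and Benjamini-Hochberg adjustment. Its spread (common dispersion 0.138, infinite prior degrees of freedom) is the departure from additivity, and p-values measure that spread only. DESeq2 1.42.0, other scalings, filters, a 3-fold limit, a prior count of 5 and summed lines were alternatives. Intervals (scipy 1.17.1) and the edgeR fit were tested on simulated data.

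All 41 members could be named. Reads in every library were given for the 15 shape and blister genes, col-19, the 10 numbered collagens with most reads, members with opposite directions and members past the edgeR threshold, and listed genes past that threshold could be named. Values of col-34, col-17, col-73, col-92, col-94, mup-4, wrt-10 and vab-10 were added after they were seen. The members and lists were chosen with earlier results of these data known.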

Additional observations from a re-analysis of the deposited data

Results flagged for a closer look

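A few collagens had intervals that excluded 1 in opposite directions, between the foods for age or between the days for diet, and with 1 library per group these differences were not tested. The log2 age ratio of dpy-14 was -0.33 on OP50 and 3.20 on PY79, a difference of 3.53, and its log2 diet ratio was -3.19 at Day 4 and 0.34 at Day 13, which is the same difference of 3.53 read across the other factor. For col-119 the log2 age ratio was 0.36 on OP50 and -2.80 on PY79, a difference of -3.16.

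For col-20 the log2 diet ratio was 0.29 at Day 4 and -1.18 at Day 13, a difference of -1.47 that rests on 17 reads in PY79 Day 13. For col-140 it was 1.05 at Day 4 and -0.17 at Day 13, a difference of -1.22, and the Day 13 value turns to 0.65 with total reads and to 0.28 with total reads without the 3% most expressed genes, so the directions are opposite only with TMM or DESeq2 size factors.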

How the results depend on the processing

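No paired analysis was possible because there is 1 library per group and the labels give no replicate numbers, so no library could be left out either. Of 300 ratios of single members under 3 other scalings, 261 kept direction and side of the 2-fold rule, and 0 counted ratios changed sign. Counts of members that moved by more than 1.5 times follow, with the value as reported first, and the cause was not tested except that stricter filters and folds leave fewer members. With age on OP50, 3 were higher, or 1 with total reads, with 10 reads in every library or at 3-fold, and 14 were lower, or 8 with 10 reads in every library. With diet at Day 4, 7 were higher, or 4 with no minimum, 2 with 10 reads in every library and 3 at 3-fold, and 3 were lower, or 6 with DESeq2 size factors and 6 with no minimum. With diet at Day 13, 5 were higher, or 9 with total reads, 2 with no minimum and 1 at 3-fold, and 3 were lower, or 5 with summed lines. In edgeR with age, 1 rose, or 0 with total reads and with 10 reads in every library (1 and 3 at an unadjusted p under 0.05, and DESeq2 called 1), and 10 fell, or 0 and 5 under those settings (13 and 10 at an unadjusted p under 0.05). In edgeR with diet, 3 rose, or 5 with total reads and 6 with total reads without the 3% most expressed genes, the last chosen after seeing the data, and 1 fell, or 0 with total reads (1 at an unadjusted p under 0.05, and DESeq2 called 1) and 4 with 10 reads in every library. Thinning the OP50 libraries to the PY79 totals, also chosen after seeing the data, left each count within 1.5 times, with 2 higher and 10 lower for age on OP50.

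The median log2 ratio of the numbered collagens was -1.72 for age on OP50, or -2.03 with total reads, -1.56 without the 3% most expressed genes and -1.585 with a prior count of 5. For age on PY79 it was -2.80, or -2.57 with total reads, -2.19 with a prior count of 5 and -2.03 with 10 reads in every library. For diet at Day 4 it was 0.55, or 0.82 with total reads, 0.40 with DESeq2 size factors, 1.04 without the 3% most expressed genes and 0.25 with 10 reads in every library. For diet at Day 13 it was 0.00, or 0.73 with total reads, 0.37 without the 3% most expressed genes and -0.27 with 10 reads in every library. For the shape collagens the median kept its sign in each comparison and alternative run, except for diet at Day 13, where -0.59 turned to 0.19 with total reads. Depth limits the shape collagens most, since 7 of the 15 did not reach 10 reads in any library.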
